A study of Homo sapiens with 6 samples.

Results

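The genes described here are the 10 core genes of RNA interference and the microRNA pathway in human cells: the Argonaute genes AGO1, AGO2, AGO3 and AGO4, the Microprocessor genes DROSHA and DGCR8, DICER1, and the GW182 family genes TNRC6A, TNRC6B and TNRC6C. They were taken by symbol from a table of 61806 genes, in which each symbol named 1 row, and all 10 passed the filter on low counts that left 15687 genes for testing. The libraries were bulk poly(A) RNA-seq of HCT116, an established human colorectal cancer cell line, grown in McCoy's 5A medium with fetal bovine serum. Cells of 3 libraries had received a control small interfering RNA (si-NC, genotype labelled wildtype), and cells of the other 3 libraries one directed at STRIP2 (si-STRIP2, genotype labelled STRIP2 knockdown). Both groups are therefore named for a duplex of the kind that Argonaute proteins take up. The sequence and dose of the duplexes and the time of harvest are not given in the sources used here. The labels do not tie replicate libraries to separate cultures, and p-values then measure only the spread between these libraries, which may be technical.

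MicroRNAs are cut from hairpins in longer transcripts. In the nucleus the Microprocessor, formed by the RNase DROSHA and its RNA-binding partner DGCR8, releases the hairpin, and in the cytoplasm the RNase DICER1 trims it to a duplex. A strand of that duplex is then held by an Argonaute protein, which pairs with target messages, while the TNRC6 (GW182) proteins bridge Argonaute to the deadenylases that shorten the target's tail. A transfected short interfering RNA enters at the Argonaute step, and AGO2 is the Argonaute best known for cutting a fully matched target.

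The Microprocessor is also known to cut hairpins in the message of its own subunit, DGCR8. The table of RefSeq microRNAs (GRCh38.p14) places the hairpins of MIR3618 and MIR1306 within DGCR8 (chromosome 22, 20080232 to 20111877, plus strand). Both lie in exons of DGCR8 in GENCODE 29, and the mature microRNAs of MIR1306 lie within its coding sequence, at chr22:20086072-20086093 and chr22:20086112-20086129. Those of MIR1306 are shown as an example of the parts of a core gene that the pathway itself acts on. The seed (bases 2 to 8) is in capitals:
hsa-miR-1306-5p: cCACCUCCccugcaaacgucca
hsa-miR-1306-3p: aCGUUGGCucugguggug
The rows of MIR3618 and MIR1306 held 0 counts in each of the 6 libraries. Both hairpins lie wholly in exons of DGCR8 on the same strand, so these counts cannot show that reads over them were absent. Mature microRNAs, which carry no poly(A) tail, are not captured by this library type, so no microRNA level is given.

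The libraries held 17184963 to 21721218 counts each. Pearson correlations of log2(FPKM + 1) across the tested genes were 0.996 to 0.997 within groups and 0.983 to 0.985 between groups, a description across genes. Counts from the mitochondrial genome made up 4.88% to 8.88% of the si-NC libraries and 5.73% to 6.30% of the si-STRIP2 libraries. STRIP2, the targeted gene, averaged 3.59 ± 0.347 FPKM (counts per exonic length and library total) over si-NC libraries and 2.61 ± 0.0929 over si-STRIP2 libraries (SD, n = 3), a log2 fold change of -0.46 (edgeR adjusted p = 1.62e-05). The epithelial markers EPCAM, KRT8, KRT18, KRT19 and CDH1 had at least 23.99 FPKM in every library, and VIL1 at most 0.03. Of these, CDH1 fell by 0.60, KRT18 by 0.18 and EPCAM by 0.11 on the log2 scale, KRT19 rose by 0.22 and KRT8 was not called (edgeR adjusted p = 1.57e-14, 0.000278, 0.0248, 1.85e-05 and 0.374), and their part in the results was not tested. Of 9 markers of fibroblasts, leukocytes and endothelium, COL1A1 reached 2.55 FPKM and the other 8 at most 0.28.

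Of the 10 genes, 7 rose in si-STRIP2 cells, 2 fell and 1, AGO2, was not called (edgeR quasi-likelihood test; a gene was called where its Benjamini-Hochberg adjusted p was below 0.05). Most transcripts of these cells met that threshold: 54.8% of all tested genes were called, 27.8% higher and 27.0% lower, and 70.7% of the 5335 genes whose average level in log2 CPM lay within the range of the 10. The median log2 fold change of the 10 was 0.14, against 0.014 for all tested genes, and the median absolute log2 fold change was 0.19, against 0.26 for all tested genes and 0.20 for the 5335 genes in that range of level. For 7 of the 10 genes the groups' FPKM ranges were separate, against 58.6% of tested genes. In bulk RNA, a change in every cell and a change in the share of cells that hold a transcript cannot be told apart.

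**Figure D1:**
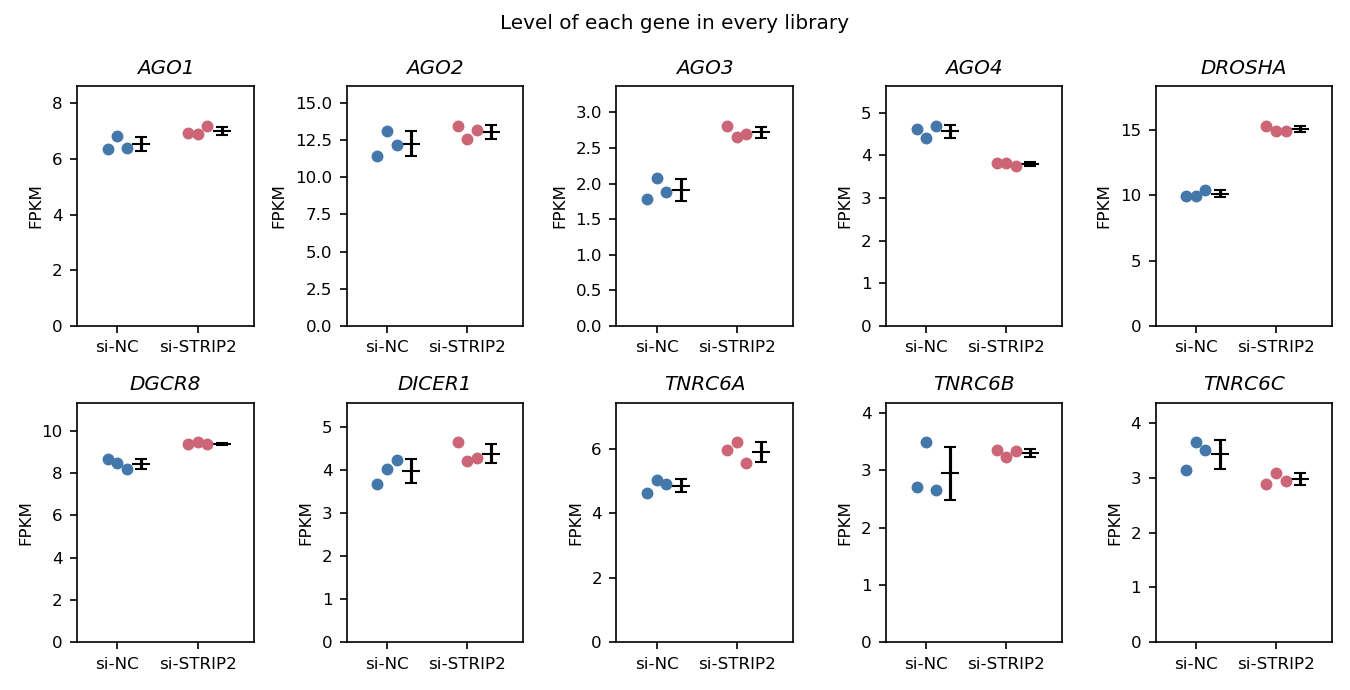
FPKM (vertical axes, from 0) of each of the 10 genes in the 3 si-NC libraries (blue) and the 3 si-STRIP2 libraries (red), 1 point a library, with the mean and SD beside them. The groups stand furthest apart for DROSHA and AGO3, AGO4 and TNRC6C are lower in si-STRIP2, and the groups overlap for AGO2, DICER1 and TNRC6B.

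DROSHA had the largest change of the 10 genes. DROSHA (ENSG00000113360, chromosome 5, 31400494 to 31532196, minus strand) had 9.98, 9.96 and 10.44 FPKM in the si-NC libraries and 15.31, 14.94 and 14.95 FPKM in the si-STRIP2 libraries. Every si-STRIP2 library lay well above every si-NC library, and the spread within each group was small. On the log2 scale DROSHA rose by 0.57 (SE 0.043, edgeR adjusted p = 1.89e-13), or 1.49-fold, and 17.2% of tested genes changed by more in either direction.

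DGCR8, whose protein is the RNA-binding partner of DROSHA, moved the same way by less. Its FPKM was 8.65, 8.47 and 8.17 in si-NC and 9.35, 9.44 and 9.36 in si-STRIP2. The groups did not overlap, and the si-STRIP2 libraries were nearly level with each other. DGCR8 rose by 0.15 on the log2 scale (SE 0.046, edgeR adjusted p = 0.00663), or 1.11-fold, and the call was lost with DESeq2 (adjusted p = 0.0570). Summed over DROSHA and DGCR8, si-NC libraries had 18.6 ± 0.110 FPKM and si-STRIP2 libraries 24.5 ± 0.185 FPKM (SD, n = 3), 31.8% more. Within that sum the balance shifted to DROSHA: the log2 ratio of DROSHA to DGCR8 went from 0.26 ± 0.078 to 0.68 ± 0.025 (SD, n = 3 per group), a description of 2 genes already given. TRMT2A, the convergent neighbour that shares the last bases of the DGCR8 locus on the opposite strand, held 21.5% as many counts as DGCR8 and rose by 0.52 on the log2 scale (edgeR adjusted p = 9.43e-06), and the loci share 3 bases on the deposited coordinates and 12 exonic bases in GENCODE 29.

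Sequences upstream of the annotated starts of DROSHA, DGCR8 and AGO4 are shown as examples of these genes' promoters with and without the words searched. They are the bases of the RefSeq promoter windows (GRCh38.p14) that lie outside the deposited genes: 147 bases for DROSHA (chr5:31532197-31532343, minus strand), 241 for DGCR8 (chr22:20079991-20080231, plus strand) and 250 for AGO4 (chr1:35807766-35808015, plus strand). Capitals mark the CCAAT box (CCAAT, or ATTGG on the other strand) and the GC box (GGGCGG, or CCGCCC on the other strand), 2 short words common in promoters:
DROSHA: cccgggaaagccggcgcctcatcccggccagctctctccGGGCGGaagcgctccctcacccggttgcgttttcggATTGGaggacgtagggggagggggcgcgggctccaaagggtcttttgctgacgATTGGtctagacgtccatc
DGCR8: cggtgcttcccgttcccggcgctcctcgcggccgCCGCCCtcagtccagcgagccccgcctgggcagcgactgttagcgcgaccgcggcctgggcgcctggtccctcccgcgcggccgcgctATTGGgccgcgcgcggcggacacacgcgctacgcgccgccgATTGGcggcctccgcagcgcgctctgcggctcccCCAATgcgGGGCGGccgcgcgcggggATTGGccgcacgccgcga
AGO4: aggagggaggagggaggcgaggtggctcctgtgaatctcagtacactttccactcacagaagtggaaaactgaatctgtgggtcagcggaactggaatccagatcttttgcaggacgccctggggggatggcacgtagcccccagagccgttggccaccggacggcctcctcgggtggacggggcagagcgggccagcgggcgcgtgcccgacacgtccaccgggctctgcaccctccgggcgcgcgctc
The stretch of DROSHA held 2 CCAAT boxes and 1 GC box, that of DGCR8 held 4 and 2, and that of AGO4 held neither word. TNRC6C, which fell like AGO4, had 2 CCAAT boxes and 2 GC boxes in the window at its deposited start. AGO3, the second-largest riser, had 0 CCAAT boxes and 2 GC boxes. The AGO3 window (chr1:35930855-35931104) lies inside the deposited gene, unlike the stretches shown, so its counts are not fully comparable. Over the 250 bases before every RefSeq start, 32.0% of 35116 windows held a CCAAT box and 42.6% a GC box. Promoter windows were found for 9 of the 10 genes (16 windows). A CCAAT box was in 8 of the 16 windows, the count to set beside the 32.0%. Counted by gene, 7 of the 9 had a CCAAT box in at least 1 window and 8 had a GC box. Some genes had several windows, including overlapping windows of DICER1, so the 16 windows are not separate promoters. The counts by gene are not comparable with the shares of windows. None of the 16 windows held the E2F words TTTGGCGC, TTTCCCGC, TTTGCCGC or TTTCGCGC, present in 2.79% of all windows, the TATA box TATAAA (10.7%), or a heat shock element made of 3 alternating GAA and TTC blocks with 2 bases between blocks (0.441%), each searched on both strands. No marked words share bases in the stretches shown. A match to a word is a description of the sequence only.

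The 4 Argonaute genes did not move together. AGO3 rose, AGO4 fell, AGO1 passed the threshold narrowly and AGO2, the most abundant, was not called. AGO4, AGO1 and AGO3 lie in that order on the plus strand of chromosome 1 within 264485 bases, with 11917 bases between AGO4 and AGO1 and 185 between AGO1 and AGO3. Neighbours in this cluster therefore differed in direction, as the following values show.

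AGO3 (chromosome 1, 35930718 to 36072500) encodes an Argonaute that keeps the residues needed for target cutting. Its FPKM was 1.78, 2.08 and 1.88 in the si-NC libraries and 2.81, 2.66 and 2.70 in the si-STRIP2 libraries, so that the groups were clearly apart. AGO3 rose by 0.51 on the log2 scale (SE 0.054, edgeR adjusted p = 6.93e-10), or 1.42-fold. AGO3 was nevertheless the lowest of the 10 genes in both groups.

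AGO4 (chromosome 1, 35808016 to 35857890), an Argonaute without known target-cutting activity, went the other way. Its FPKM was 4.62, 4.40 and 4.69 in si-NC and 3.83, 3.81 and 3.75 in si-STRIP2. Every si-STRIP2 library was below every si-NC library. AGO4 fell by 0.27 on the log2 scale (SE 0.063, edgeR adjusted p = 0.000415), which is 1.21-fold. The log2 ratio of AGO3 to AGO4 went from -1.26 ± 0.157 to -0.48 ± 0.036 (SD, n = 3 per group). This description pairs the Argonaute that rose most with the only one called lower, a pair named after the values were seen.

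AGO1 (chromosome 1, 35869808 to 35930532) had 6.37, 6.81 and 6.40 FPKM in si-NC and 6.94, 6.91 and 7.18 FPKM in si-STRIP2. Its groups were apart by only 0.10 FPKM, between the highest si-NC and the lowest si-STRIP2 library. AGO1 rose by 0.10 on the log2 scale (SE 0.043, edgeR adjusted p = 0.0484), and the call was lost under 13 of 17 alternatives, with adjusted p-values from 0.0328 to 1 over all of them.

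AGO2 (chromosome 8, 140520156 to 140635633, minus strand) had 11.45, 13.11 and 12.15 FPKM in si-NC and 13.44, 12.54 and 13.16 FPKM in si-STRIP2. The groups overlapped, since the second si-NC library was above the second si-STRIP2 library. The fitted log2 difference was 0.092 (SE 0.043, edgeR adjusted p = 0.0716). Leaving out a library moved it, to 0.048 without si-NC replicate 1 and to 0.13 without si-NC replicate 2, where it was called (adjusted p = 0.0120), as it was without si-STRIP2 replicate 2 (0.12, adjusted p = 0.0495).

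The summed Argonaute level was 24.22, 26.40 and 25.12 FPKM in si-NC and 27.02, 25.92 and 26.79 FPKM in si-STRIP2. These sums overlapped, with means of 25.2 ± 1.10 and 26.6 ± 0.580 (SD, n = 3). The mean was 5.27% higher in si-STRIP2, and 3.17% higher without si-NC replicate 1. Within the sum, AGO2 held 48.4% ± 1.19 in si-NC and 49.1% ± 0.682 in si-STRIP2, and AGO1 25.9% ± 0.415 and 26.4% ± 0.608 (SD, n = 3), shares that overlapped between groups. AGO3 held 7.57% ± 0.275 in si-NC and 10.2% ± 0.161 in si-STRIP2, and AGO4 18.1% ± 1.29 and 14.3% ± 0.365 (SD, n = 3). The shares of AGO3 and AGO4 did not overlap between groups (exact permutation test, 2-sided, p = 0.1 each, the smallest that 3 against 3 allows; adjusted p = 0.175 over 7 shares).

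**Figure D2:**
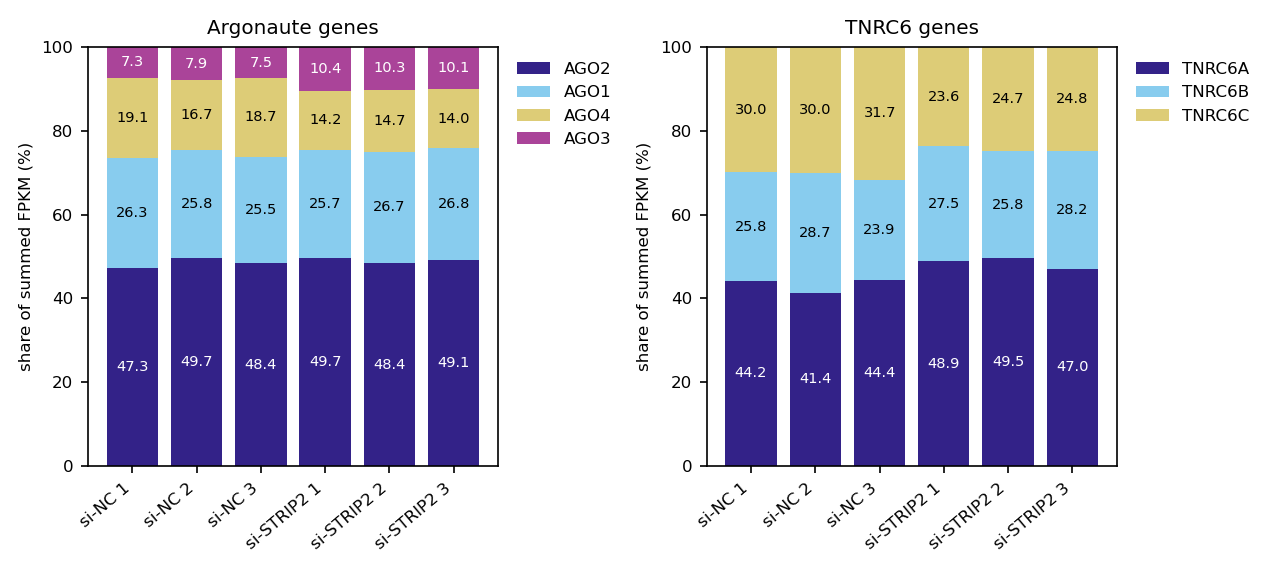
Share of the summed FPKM (vertical axis, percent) held by each gene of the Argonaute family (left) and the TNRC6 family (right) in each of the 6 libraries, 1 bar a library. AGO2 and AGO1 keep similar shares in all bars, AGO4 narrows and AGO3 widens in the 3 si-STRIP2 bars, and TNRC6C narrows while TNRC6A widens.

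DICER1 (ENSG00000100697, chromosome 14, 95086228 to 95158010, minus strand) had 3.67, 4.02 and 4.23 FPKM in si-NC and 4.63, 4.21 and 4.28 FPKM in si-STRIP2. The groups overlapped, since the third si-NC library was above the second si-STRIP2 library. DICER1 rose by 0.14 on the log2 scale (SE 0.048, edgeR adjusted p = 0.0152). The call was lost under 6 of 17 alternatives, among them DESeq2 (adjusted p = 0.0791), without si-NC replicate 1 (log2 fold change 0.085, adjusted p = 0.179) and without si-STRIP2 replicate 1 (adjusted p = 0.105), and adjusted p-values over all 17 ranged from 0.00146 to 1.

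The transcript that starts opposite DICER1 changed by more than DICER1. DICER1-AS1, an antisense RNA gene, overlaps the start of DICER1 over 366 bases on the other strand and had 52, 54 and 55 counts in si-NC and 86, 84 and 77 counts in si-STRIP2. It rose by 0.68 on the log2 scale (SE 0.164, edgeR adjusted p = 0.000686). It held 4.04% as many counts as DICER1, and it is named after its values were seen. The loci share 80 exonic bases in GENCODE 29, and the strand setting of the counting is not given in the sources used here. Reads of the 2 genes there may therefore not have been told apart, and the value of DICER1-AS1 is uncertain.

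The 3 TNRC6 genes encode scaffolds with many glycine-tryptophan repeats that recruit the deadenylases. TNRC6A and TNRC6B rose and TNRC6C fell. TNRC6A (chromosome 16, 24610209 to 24827632, plus strand) had 4.62, 5.02 and 4.92 FPKM in si-NC and 5.95, 6.19 and 5.56 FPKM in si-STRIP2. The groups were clearly apart. TNRC6A rose by 0.28 on the log2 scale (SE 0.048, edgeR adjusted p = 6.83e-06).

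TNRC6C (chromosome 17, 77958703 to 78108822, plus strand) had 3.13, 3.64 and 3.51 FPKM in si-NC and 2.88, 3.09 and 2.93 FPKM in si-STRIP2. Its groups came within 0.04 FPKM of each other, with no overlap. TNRC6C fell by 0.21 on the log2 scale (SE 0.061, edgeR adjusted p = 0.00443). With limma on log2(FPKM + 1) the call was lost (adjusted p = 0.0513). TMC6 converges on TNRC6C from the opposite strand and overlaps its last 1426 bases on the deposited coordinates. It held 66.4% as many counts as TNRC6C and was not called (log2 fold change -0.14, edgeR adjusted p = 0.132). The 2 genes share 0 exonic bases in GENCODE 29, but the deposited gene models can differ, so their exonic overlap is not known. In GENCODE 29, 12.3% of the 50-base words of TNRC6C transcripts were shared with the antisense gene TNRC6C-AS1. TNRC6C-AS1 is not among the deposited genes that overlap TNRC6C. With the strand setting also unknown, the value of TNRC6C is uncertain.

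TNRC6B (chromosome 22, 40044817 to 40335808, plus strand) had 2.70, 3.48 and 2.65 FPKM in si-NC and 3.35, 3.22 and 3.33 FPKM in si-STRIP2. The second si-NC library stood above all others, and without it the si-STRIP2 libraries lay above the si-NC libraries. TNRC6B rose by 0.17 on the log2 scale (SE 0.062, edgeR adjusted p = 0.0237). The rise was 0.29 without si-NC replicate 2 (adjusted p = 9.83e-06), 0.11 without si-NC replicate 1 (adjusted p = 0.206) and 0.099 without si-NC replicate 3 (adjusted p = 0.179). The call was lost under 9 of 17 alternatives, with adjusted p-values up to 1.

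The summed TNRC6 level was 10.45, 12.14 and 11.08 FPKM in si-NC and 12.18, 12.50 and 11.82 FPKM in si-STRIP2. These sums overlapped, and the mean was 8.41% higher in si-STRIP2, or 13.02% without si-NC replicate 2 and 4.79% without si-NC replicate 1. TNRC6A held 43.3% ± 1.71 of the sum in si-NC and 48.5% ± 1.28 in si-STRIP2, and TNRC6C 30.5% ± 0.988 and 24.4% ± 0.641 (SD, n = 3). Both shares were apart between groups (exact permutation test, 2-sided, p = 0.1 each, adjusted p = 0.175). TNRC6B held 26.1% ± 2.39 and 27.1% ± 1.25, shares that overlapped (exact permutation test, p = 0.7).

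**Figure D3:**
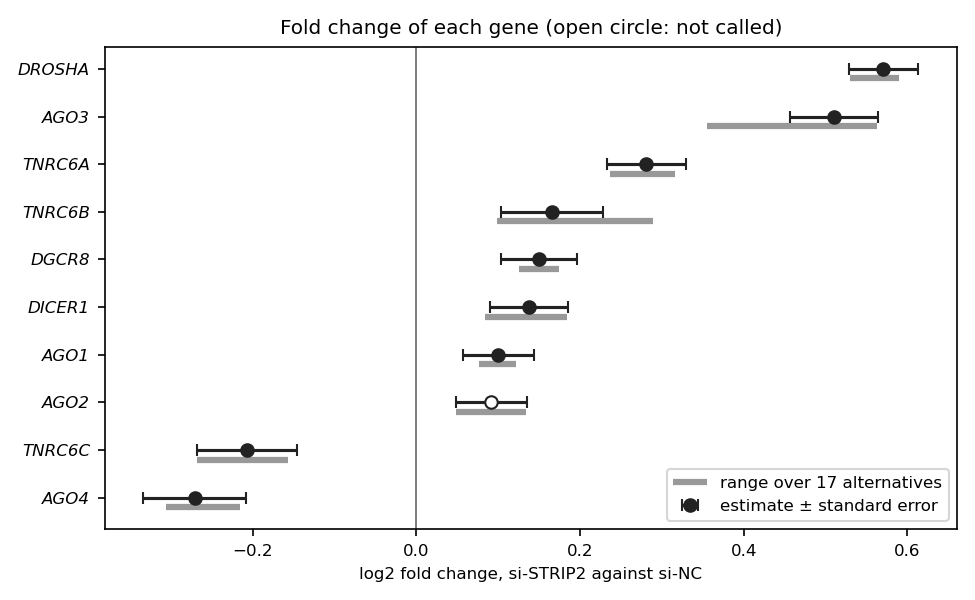
Log2 fold change of each of the 10 genes (horizontal axis, si-STRIP2 against si-NC) with its standard error (black; the open circle is AGO2, which was not called) and the range of the estimate over 17 alternative analyses (grey bar). DROSHA and AGO3 lie furthest to the right, TNRC6C and AGO4 lie left of 0, and the grey bars of AGO3 and TNRC6B are the longest.

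FPKM divides by the deposited exonic size of a gene, so the order of levels between genes holds only for those sizes. DICER1 had a deposited size of 22151 bases, but its GENCODE transcripts held only 12583 sequence words of 50 bases. For the other genes the deposited size and the word count were close. With a smaller size the FPKM of DICER1 would be higher, so its place in the order is uncertain. In si-NC the order was AGO2 (12.2 FPKM), DROSHA (10.1), DGCR8 (8.43), AGO1 (6.53), TNRC6A (4.85), AGO4 (4.57), DICER1 (3.97), TNRC6C (3.43), TNRC6B (2.94) and AGO3 (1.91). The ranges of neighbours in that order overlapped for TNRC6A with AGO4 and for TNRC6C with TNRC6B, and no others did. In si-STRIP2 the order differed at 3 places, and no ranges of neighbours overlapped. DROSHA (15.1 FPKM) stood above AGO2 (13.05), DICER1 (4.37) above AGO4 (3.797), and TNRC6B (3.30) above TNRC6C (2.97). The 10 genes lay between the 40.1 and 78.7 percentile of tested genes by FPKM, AGO3 lowest and AGO2 highest.

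The 10 genes share large exonic sizes, a size per gene that need not be the length of any transcript. Their exonic sizes ran from 7315 bases for DGCR8 to 22151 for DICER1, with a median of 13505.5, against 4904 for tested genes. At similar FPKM, a longer gene holds more counts and its fold change is then measured more finely. Reads could in principle be mistaken between the related genes of a family, so words of 50 bases from their GENCODE 29 transcripts were compared: 0 words were shared between any 2 of the 10 genes. Words shared with any other gene made up at most 2.50% of the words of a gene, except 6.85% for DGCR8 and 12.3% for TNRC6C, where all of them were shared with the antisense gene TNRC6C-AS1. On the deposited coordinates 20 other genes overlapped 9 of the 10, and 16 of these held fewer than 10 counts over all libraries together.

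The other genes of the pathway were followed in 8 lists of 78 genes, of which 73 were tested. Of these, 39 rose and 17 fell, and the median log2 fold change was 0.13. The lists differed in direction: most of the chaperones and of the partners of primary transcript processing rose, while the deadenylation list had more falls than rises. Counts and medians of a list are descriptions, beside the 54.8% of all genes that were called.

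Around the Microprocessor, 8 of 11 genes of primary transcript processing and export rose and 1 fell, with a median log2 fold change of 0.16. SRSF3, a splicing factor that marks hairpins for the Microprocessor, rose from 67.2 ± 2.76 to 97.5 ± 1.63 FPKM (SD, n = 3; log2 fold change 0.53, edgeR adjusted p = 1.05e-12). SAFB, an RNA-binding protein, rose by 0.45 and DDX17, a helicase cofactor of DROSHA, rose by 0.52 on the log2 scale (edgeR adjusted p = 6.38e-11 and 9.31e-10). The related SAFB2 had a log2 fold change of 0.11 with overlapping groups and was not called (edgeR adjusted p = 0.0745). XPO5, which exports the hairpin to the cytoplasm, rose by 0.38. The gene that fell was ADAR, the editing enzyme that deaminates double-stranded RNA, with a log2 fold change of -0.35.

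Of the 4 Dicer partners, 2 rose and 1 fell. TARBP2, a double-stranded RNA-binding cofactor of DICER1, rose from 3.21 ± 0.174 to 3.94 ± 0.337 FPKM (SD, n = 3; log2 fold change 0.29, edgeR adjusted p = 0.00531). The TARBP2 call was lost with DESeq2 (adjusted p = 0.0510), in edgeR when si-STRIP2 replicate 1 was left out (adjusted p = 0.0540), and against a 1.2-fold change. PRKRA, the related cofactor, had a log2 fold change of 0.0020 and was not called (edgeR adjusted p = 0.974). The subunits of the C3PO nuclease, TSN and TSNAX, changed in opposite directions, by 0.18 and -0.16 (edgeR adjusted p = 0.000539 and 0.00374).

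The chaperones that hold Argonaute ready for a duplex had the largest median change of the 8 lists. Of 10, 9 rose, DNAJA2 was not called, and the median log2 fold change was 0.52. HSPA8 (log2 fold change 1.64), HSP90AA1 (1.03) and HSP90AB1 (0.96) had the smallest adjusted p, and HSP90AB1 went from 848.8 ± 34.9 to 1656 ± 28.9 FPKM (SD, n = 3; edgeR adjusted p = 2.83e-17). These are general chaperones with many clients, and the rise of HSPA8 in these cells was known when the list was made. Without them, 30 of 63 tested genes of the other lists rose and 17 fell, with a median of 0.11.

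Among partners of Argonaute and TNRC6 proteins, 6 of 12 tested genes rose and 3 fell. MOV10, an Argonaute-bound helicase, rose from 6.88 ± 0.375 to 9.89 ± 0.475 FPKM (SD, n = 3; log2 fold change 0.52, edgeR adjusted p = 3.42e-11). EIF4E2, a cap-binding repressor, rose by 0.38 and SND1, a nuclease found with the silencing complex, by 0.30 on the log2 scale. The falls were those of FXR2 (log2 fold change -0.27), AJUBA (-0.22) and IPO8 (-0.16), the importin reported to carry Argonaute. TRIM71, a ligase that binds Argonaute, was not tested, with 0 to 2 counts a library.

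In the deadenylation list 4 of 13 genes rose and 6 fell, with a median log2 fold change of -0.10. CNOT1, the scaffold of the CCR4-NOT deadenylase that TNRC6 proteins recruit, fell from 40.1 ± 2.34 to 31.6 ± 1.41 FPKM (SD, n = 3; log2 fold change -0.34, edgeR adjusted p = 4.32e-08). The catalytic subunit CNOT6 fell by 0.34 on the log2 scale (edgeR adjusted p = 1.12e-08), and the further catalytic subunits CNOT7 and CNOT8 had log2 fold changes of -0.21 and -0.29. CNOT6L, the paralog of CNOT6, went up by 0.21 and CNOT9, the subunit that binds TNRC6 tryptophans, by 0.29. PAN2, the nuclease of the other deadenylase, rose by 0.48.

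Decapping and decay from the capped end showed 3 rises and 2 falls among 11 genes. The decapping enzyme DCP2 rose from 6.76 ± 0.320 to 9.02 ± 0.187 FPKM (SD, n = 3; log2 fold change 0.42, edgeR adjusted p = 1.13e-09) and EIF4ENIF1, which ties DDX6 to the cap-binding protein, rose by 0.40. PATL1, a decapping activator, fell by 0.37 on the log2 scale (edgeR adjusted p = 6.38e-09). DDX6, the helicase that links deadenylation to decapping, had a log2 fold change of 0.058 and was not called (edgeR adjusted p = 0.231).

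Of the genes of microRNA tailing, trimming and turnover, all 10 tested were called, 7 higher and 3 lower. The share called was 54.8% over all tested genes and 70.7% in the level range of the 10 core genes. ERI1, an exonuclease of small RNAs and histone messages, fell from 23.4 ± 1.13 to 17.03 ± 0.886 FPKM (SD, n = 3; log2 fold change -0.46, edgeR adjusted p = 1.55e-10). The uridylating enzymes TUT7 and TUT4 went in opposite directions, with log2 fold changes of 0.38 and -0.12. The groups of TUT4 overlapped (6.57, 7.35 and 6.77 FPKM in si-NC, 6.32, 6.14 and 6.58 FPKM in si-STRIP2; edgeR adjusted p = 0.0225). XRN2, a nuclear exonuclease, rose by 0.34. LIN28A and LIN28B, which block let-7 maturation, were not tested: LIN28A had 6 to 9 counts a library and LIN28B 4 to 11.

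The PIWI Argonautes, known from the germline, were at the edge of detection. PIWIL1 and PIWIL3 had 0 counts in all 6 libraries, and PIWIL4 had 6 to 23. PIWIL2 had 27, 13 and 20 counts in si-NC and 13, 10 and 9 in si-STRIP2, groups that touch at 13. PIWIL2 fell by 0.83 on the log2 scale (SE 0.333, edgeR adjusted p = 0.0346), and the call was lost under 7 of 14 alternatives (adjusted p from 0.0188 to 0.188).

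**Figure D4:**
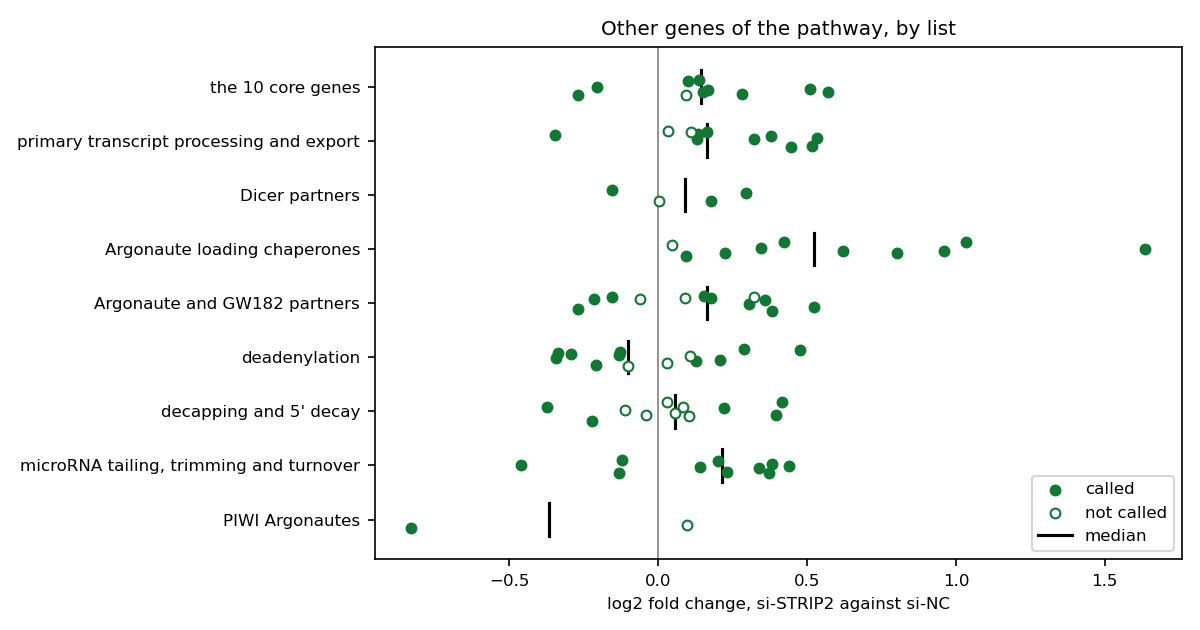
Log2 fold change (horizontal axis, si-STRIP2 against si-NC) of the 10 core genes and of the 73 tested genes of the 8 other lists, 1 point a gene, filled where called, with a black line at the median of each list. The chaperone list reaches 1.64 and has its median at 0.52, and the deadenylation list has its median at -0.10.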

How the data were processed

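Total RNA was isolated with TRIzol, poly(A) RNA was selected and directional libraries were made, per the labels' protocols. The submitters' processing notes name cutadapt 1.9.1, HISAT2 2.2.1, HTSeq 0.6.1 and the build GRCh38.p13. The annotation release and the strand setting are not given in the sources used here. The authors deposited raw counts and FPKM per gene, per the file headers. FPKM recomputed from the deposited counts, the exonic size and the column total differed by at most 0.005, the rounding of the table.

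Counts were fitted in R 4.3.3 with edgeR 4.0.16: filterByExpr (minimum count 10), TMM scaling, a quasi-likelihood fit with group as the only term, a 2-sided F test and Benjamini-Hochberg adjustment over 15687 genes (99.8% of counts). Standard errors (SE) were back-calculated from each gene's F statistic and log2 fold change. Alternatives used DESeq2 1.42.0 and limma 3.58.1. Depth was 17184963 to 21721218 counts a library, and genes with few counts have wide errors. The main fit did not pair the libraries by replicate number. Deviations of same-numbered libraries correlated at -0.0858 to -0.0133, which cannot settle whether they were paired, and the labels do not say. All 10 genes are reported, with the 3 called genes of smallest adjusted p in each list, STRIP2, untested genes by their counts, and overlapping genes with at least 10% of a gene's counts. Further list genes were named after their values were seen. The genes, the lists and the tests were chosen with earlier results of these data known.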

Additional observations from a re-analysis of the deposited data

How the results depend on the processing

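Across 17 alternatives, DROSHA (log2 fold change 0.53 to 0.59) and AGO3 (0.36 to 0.56) were called higher each time. AGO4 (-0.31 to -0.22) and TNRC6A (0.24 to 0.32) kept their calls under all but the test against a 1.2-fold change. STRIP2 was called lower under all 17 (-0.54 to -0.35). No sign of any of the 10 genes changed. Against 7 higher and 2 lower of the 10, DESeq2 called 3 higher, limma on log2(FPKM + 0.1) 4 and on log2(FPKM + 1) 4 higher and 1 lower. The edgeR test against a 1.2-fold change called 3723 of all genes, 2 of the 10 higher and 0 lower (0 lower also at an unadjusted p under 0.05), and among the other lists 19 higher and 5 lower, against 39 and 17, a stricter question by construction. Elsewhere the cause was not tested. Leaving out each library in turn gave 4 (without si-NC replicate 1) to 8 of the 10 higher and 2 lower each time, with 34 to 38 and 14 to 18 in the lists.

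With the replicate block, 8 of the 10 genes kept their call and AGO1 lost it (log2 fold change 0.10, adjusted p = 0.0872), and 8293 genes were called in place of 8599. The 3 same-numbered pairs had negative correlations of deviations. On counts not scaled by length, the difference in the AGO1 share was -0.302 percentage points and in the AGO2 share -0.963, against 0.524 and 0.647 per length. Leaving out each library in turn gave -0.106 (without si-NC replicate 3) to 2.27 points for the TNRC6B share. The summed levels were higher in si-STRIP2 under each of 9 alternatives: by 3.17% to 8.64% for the Argonautes, 31.2% to 32.3% for the Microprocessor and 4.79% to 13.02% for TNRC6. The median log2 fold change of all genes stayed between 0.0021 and 0.046.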
